A study of Homo sapiens with 66 samples.

Results

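RCC4 HIF-2-only sites are the places in the genome of RCC4 cells where a HIF-2α peak was called in both replicate ChIP-seq libraries, the overlapping peaks being merged into 1 interval, and where neither HIF-1α library had a peak. The definition left 295 of the 1211 sites called in both HIF-2α libraries of this line, and 295 of the 50316 merged sites of all 50 peak lists. Background percentages below are shares of the 11099 merged sites with any RCC4 HIF-α peak, of which 54.7% were in either HIF-2α list and 10.9% in both, and 62% in either HIF-1α list and 8.12% in both. RCC4 cells come from a kidney cancer and have no working VHL, so that HIF-α subunits are stable in normoxia, and they were studied without hypoxic treatment. The lists came from chromatin immunoprecipitation with antibodies to HIF-1α, HIF-2α or HIF-1β, and 46 of them were not used to choose the sites. HKC-8, a renal proximal tubule line, was studied after 6, 16 or 48 h in 0.5% oxygen and after 6 h in 3% oxygen. In a separate experiment wild-type HKC-8 cells and 2 derived knockout lines, 1 without HIF-1α and 1 without HIF-2α, were all kept in 0.5% oxygen for 16 h. Each knockout line was a single clone made with CRISPR-Cas9, so a clone's own traits and the loss of the protein cannot be told apart. HepG2, a liver cancer line, was kept in 0.5% oxygen for 16 h. Every antibody and condition had 2 libraries, and the peak lists held between 237 and 8279 peaks. The lists measure no expression, so the identity of the lines could not be checked against marker genes, and no HIF-2α list of the HIF-2α knockout was used here.

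HIF is a heterodimer in which an oxygen-regulated α subunit, HIF-1α or HIF-2α, pairs with the constitutive HIF-1β subunit on the hypoxia response element (HRE). Both α subunits read the same core letters, ACGTG or GCGTG. In VHL-defective kidney cancer HIF-2α is known for driving tumour growth, and HIF-1α for the glycolytic programme. A site that is bound in fewer cells and a site that is bound more weakly in each cell cannot be told apart in bulk chromatin.

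The sequences of 6 of these sites show what the group contains. FHAD1, ETS2 and CRISPLD2 name the nearest genes of sites that recurred in many other lists and carried HRE letters, while the SMYD3, SNAPC1 and ROBO2 sites had the highest mean score percentiles in the RCC4 HIF-2α lists. Each is the 200 bases around the middle of the merged interval, from the plus strand of GRCh37, written 5′ to 3′. Capitals mark the HRE core on either strand and the AP-1 motif TGACTCA on either strand.
FHAD1 intron site, chr1:15682835-15683034: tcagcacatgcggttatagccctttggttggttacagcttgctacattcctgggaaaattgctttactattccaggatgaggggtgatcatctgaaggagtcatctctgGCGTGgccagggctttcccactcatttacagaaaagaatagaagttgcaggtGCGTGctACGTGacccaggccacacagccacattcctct
ETS2 site, chr21:40211942-40212141: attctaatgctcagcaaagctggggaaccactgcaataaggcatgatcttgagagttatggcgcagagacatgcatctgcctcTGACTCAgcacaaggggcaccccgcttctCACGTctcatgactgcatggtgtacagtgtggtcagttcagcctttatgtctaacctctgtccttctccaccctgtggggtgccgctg
CRISPLD2 intron site, chr16:84873677-84873876: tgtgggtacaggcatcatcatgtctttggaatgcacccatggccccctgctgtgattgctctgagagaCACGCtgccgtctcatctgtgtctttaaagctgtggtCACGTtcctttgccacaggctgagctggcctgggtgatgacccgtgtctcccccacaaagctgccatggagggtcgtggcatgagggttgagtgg
SMYD3 intron site, chr1:246598908-246599107: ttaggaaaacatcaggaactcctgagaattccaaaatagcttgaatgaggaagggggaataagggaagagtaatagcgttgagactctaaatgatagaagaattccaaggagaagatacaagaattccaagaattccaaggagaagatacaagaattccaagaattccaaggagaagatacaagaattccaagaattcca
SNAPC1 site, chr14:62222037-62222236: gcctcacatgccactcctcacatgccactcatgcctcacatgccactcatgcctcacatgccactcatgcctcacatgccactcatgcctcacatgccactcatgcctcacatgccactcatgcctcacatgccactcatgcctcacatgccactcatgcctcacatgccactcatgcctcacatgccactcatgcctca
ROBO2 intron site, chr3:76546902-76547101: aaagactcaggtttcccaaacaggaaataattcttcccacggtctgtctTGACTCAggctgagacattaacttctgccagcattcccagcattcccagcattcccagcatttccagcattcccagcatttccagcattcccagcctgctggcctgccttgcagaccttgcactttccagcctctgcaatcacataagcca

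The FHAD1 window held 3 HRE cores and the CRISPLD2 window held 2. An AP-1 motif lay beside the HRE core in the ETS2 window. The SMYD3, SNAPC1 and ROBO2 windows held no HRE core, and the ROBO2 window held an AP-1 motif. All 3 contained repeated words. Of all 12-base words in the window, 94.7% occurred more than once at SNAPC1, 48.7% at SMYD3 and 30.2% at ROBO2, where the median over the RCC4 HIF-2-only sites was 0%. At least 20% of the words were repeated at 6 of 295 RCC4 HIF-2-only sites (2.03%, exact 95% binomial interval 0.750 to 4.37%), 1 of 256 HIF-1-only sites (0.391%, 0.00989 to 2.16%) and 2 of 462 sites called in both replicates of both isoforms (0.433%, 0.0525 to 1.55%). The repeat measure was added after the sequences were seen, and these intervals, like all intervals on shares of sites, cover counting error only.

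The rule chose the sites by their HIF-α calls in RCC4 cells, so the scores there describe the choice. The score, which MACS writes as the negative log10 of the peak's p-value times 10, was never under 50 in any list. The lower of the 2 HIF-2α scores of a site ran from 50.1 to 1733, with a median of 72.4, and the mean percentile of the score among all peaks of its list had a median of 64.5. Sites bound by both isoforms stood higher, at a median percentile of 89.4 in the same lists. Just outside the definition lay the HIF-2α sites that overlapped a HIF-1α peak in a single replicate, 441 in replicate 1 alone and 14 in replicate 2 alone. The HIF-1α list of replicate 1 held 5680 peaks and that of replicate 2 held 2120. The HIF-1α score at those excluded sites had a median of 112.6 and went down to 50.01. Among the 295 sites, the nearest HIF-1α peak was never closer than 274 bases, lay within 1 kb of 5 sites and within 100 kb of 173. Had replicate 1 of HIF-1α not been used, 736 sites would have met the rule, and with a single HIF-2α library 1941 (without replicate 1) or 2577 (without replicate 2).

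RCC4 HIF-2-only sites were remote from promoters. Of the 295 sites, 7 lay within 1 kb of a protein-coding transcription start site (2.37%, exact 95% binomial interval 0.959 to 4.83%), as against 150 of 256 HIF-1-only sites (58.6%, 52.3 to 64.7%) and 87 of 462 sites of both isoforms (18.8%, 15.4 to 22.7%). Over all 11066 RCC4 HIF-α sites on chromosomes 1 to 22, X and Y the share was 20.9%. The median distance to a start site was 50.6 kb for HIF-2-only sites, 0.298 kb for HIF-1-only sites and 20.5 kb for sites of both isoforms. More than 100 kb away lay 98 of the 295 (33.2%), beside 26.8% of all RCC4 HIF-α sites and 31.3% of all merged sites of the series. By the middle of the interval, 142 sites were intronic, 146 intergenic, 5 in a UTR, 1 in coding sequence and 1 in another exon. Of 454 sites on these chromosomes that a single HIF-1α replicate excluded, 38 (8.37%) lay within 1 kb of a start site. Without HIF-1α replicate 1 in the definition the share of HIF-2-only sites was 6.11%, and without HIF-2α replicate 1 it was 1.39%. The classes were defined by isoform calls and not by position, and no test was run over sites, which are not replicates.

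The 7 promoter sites were those of SH3BP4, DOCK2, TBX15, TMEM91, TAGLN2, SDC2 and RAI14. SH3BP4 encodes an endocytosis adaptor, and its site (chr2:235889559-235890944) lay 0.052 kb from a start site, held an HRE core and was present in 14 of the 46 other lists. The site of DOCK2, a guanine nucleotide exchange factor of blood cells, was in 12 lists and that of TBX15, a T-box transcription factor, in 10. TAGLN2, which encodes an actin-binding protein, had 3 HRE cores at its site and 4 calls, 2 of them HIF-2α in the HIF-1α knockout. Neither SH3BP4 nor DOCK2 was called by HIF-1α in any list outside RCC4 cells.

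An HRE core lay within 100 bases of the middle of 135 RCC4 HIF-2-only sites (45.8%, 39.98 to 51.6%). With the definition resting on a single HIF-2α library it was 21.1% (without replicate 1) or 28.9% (without replicate 2). The share was 73.0% (67.2 to 78.4%) for HIF-1-only sites and 72.1% (67.7 to 76.1%) for sites of both isoforms. It was 63.7% (59.0 to 68.1%) for the 454 sites that a single HIF-1α replicate excluded. For all RCC4 HIF-α sites it was 38.3%, and for all merged sites of the series 31.8%. ACGTG and its complement were found at 91 sites (30.8%) and GCGTG and its complement at 60 (20.3%). In HIF-1-only sites those shares were 47.7% and 44.1%. The median GC content of the windows was 48.5% for HIF-2-only sites, 61.8% for HIF-1-only sites and 51.5% for sites of both isoforms, and its part in the motif shares was not tested. Over the whole merged interval rather than 200 bases, 82.7% of HIF-2-only and 96.1% of HIF-1-only sites held the core, in intervals with a median of 1060 and 1393 bases.

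AP-1, the dimer of JUN and FOS family proteins, has the motif TGACTCA, which was present at 64 RCC4 HIF-2-only sites (21.7%, 17.1 to 26.8%), or 9.99% without HIF-2α replicate 1 and 12.4% without replicate 2 in the definition. Sites of both isoforms had a share of 20.8% (17.2 to 24.8%) and HIF-1-only sites one of 6.25% (3.61 to 9.95%), with 9.66% of all RCC4 HIF-α sites and 7.32% of all sites of the series. Some 36 sites held both an HRE core and AP-1, and 132 of 295 (44.7%) held neither. GGAATG, a core read by the TEAD factors, was at 27.5% (22.4 to 32.9%) of HIF-2-only, 11.3% of HIF-1-only, 16.2% of both-isoform and 14.1% of all RCC4 sites. TGTGGTT, read by the RUNX factors, was at 12.5% (8.99 to 16.9%), 4.69%, 5.63% and 5.13%. CCGGAAG, an ETS core, went the other way, at 1 HIF-2-only site (0.339%) but 10.2% of HIF-1-only sites. CACGTG, the E-box, which contains the HRE core, was at 5.08% of HIF-2-only and 4.66% of all RCC4 sites. All motifs were searched on both strands, and a match is a description of the letters in the window only.

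**Figure D1:**
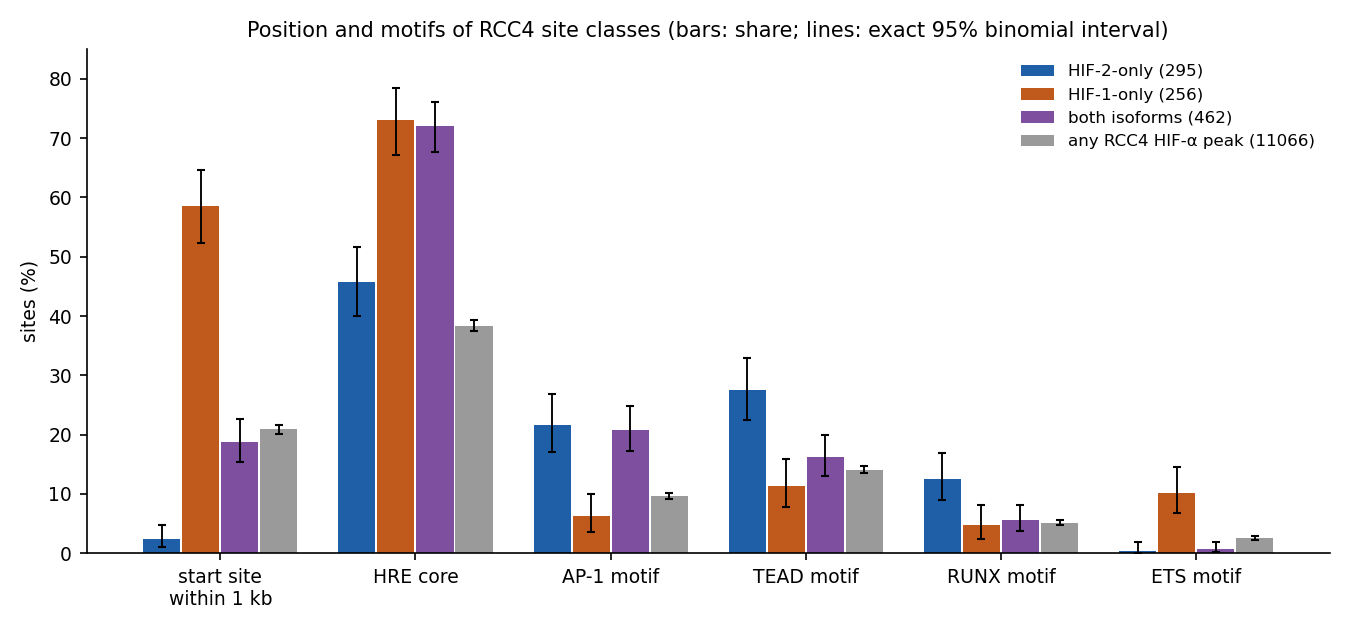
Share of sites (%) in 4 RCC4 site classes with a protein-coding start site within 1 kb or with a motif within 100 bases of the middle, with numbers of sites in the key and exact 95% binomial intervals as lines. The HIF-2-only bar is lowest for start sites (2.37%), lies between the other restricted classes and all RCC4 sites for the HRE core (45.8%), and stands highest of the 4 for the TEAD (27.5%) and RUNX (12.5%) letters. Sites that a single HIF-1α replicate excluded are not drawn as a class.

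HIF-1β was rarely called at these sites in RCC4 cells themselves. The 2 HIF-1β lists, which the rule did not use, held 11 and 5 of the 295 sites (3.73% and 1.69%). At least 1 of them held 14 sites (4.75%, 2.62 to 7.83%, background 8.89%), and both held 2 sites (0.678%, background 3.97%). The share in either was 17.8% without HIF-1α replicate 1 in the definition, 1.03% without HIF-2α replicate 1, 1.28% without HIF-2α replicate 2, and 1.69% without HIF-1β replicate 2. By comparison, either list held 110 of 256 HIF-1-only sites (43.0%, 36.8 to 49.3%) and 329 of 462 sites of both isoforms (71.2%, 66.8 to 75.3%). These lists were short, with 911 and 1305 peaks, as against 4317 and 2990 for HIF-2α. The HIF-1β libraries are labelled repeat 2 and 3, with inputs of their own, and the HIF-α libraries replicate 1 and 2. The labels do not say whether these came from the same experiment. The scores of the HIF-2-only sites were also lower than those of both-isoform sites, and the part of score and list length in the difference was not tested. The 2 sites with HIF-1β in both lists were near CRISPLD2, which encodes a secreted protein, and RUNX2, a Runt-domain transcription factor. The site within CRISPLD2 (chr16:84873159-84874404) was 1.83 kb from a start site, and RUNX2 was 275 kb from its site (chr6:45664954-45666799). Neither gene was on the gene lists described below. In HKC-8 cells HIF-1β was called in at least 1 wild-type list at 161 of the 281 sites without RCC4 HIF-1β (57.3%, 51.3 to 63.2%) and at 10 of the 14 with it.

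In wild-type HKC-8 cells after 16 h in 0.5% oxygen, HIF-2α was called at 144 and 169 of the 295 sites (48.8% and 57.3%, mean 53.1% ± 5.99, SD, n = 2). HIF-1α was called there at 22 and 25 sites (7.46% and 8.47%, mean 7.97% ± 0.719) and HIF-1β at 133 and 167 (45.1% and 56.6%, mean 50.8% ± 8.15). The HIF-1α and HIF-2α libraries did not overlap. Both HIF-2α libraries held 135 sites (45.8%, background 13.2%) and at least 1 held 178 (60.3%, background 19.1%). Both HIF-1α libraries held 14 (4.75%, background 6.84%) and at least 1 held 33 (11.2%, background 11.5%). For HIF-1β these were 129 (43.7%, background 18.8%) and 171 (58.0%, background 26.5%). Of the 462 sites of both isoforms, 302 (65.4%) had HIF-2α in both libraries. Of the 295 sites, 103 (34.9%, 29.5 to 40.7%) met the same definition in wild-type HKC-8 cells, with HIF-2α in both libraries and HIF-1α in neither. None met the opposite one, which allows a share of up to 1.02%, taken as 3 counts of 295. Conversely, 50 of 256 RCC4 HIF-1-only sites were HIF-1-only in HKC-8 cells and 2 were HIF-2-only. Of the 462 sites of both isoforms, 19 (4.11%) were HIF-2-only there, and no share was taken over all RCC4 HIF-α sites. Among the 135 sites with HIF-2α in both libraries, HIF-1β was called in at least 1 library at 127 (94.1%, 88.7 to 97.4%).

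HRE letters were at 58 of 135 sites (43.0%) with HIF-2α in both wild-type libraries and at 52 of 117 (44.4%) with none. AP-1 letters were at 33 of the former (24.4%) and 17 of the latter (14.5%), and the TEAD core at 47 (34.8%) and 24 (20.5%). The median percentile of the RCC4 HIF-2α score was 66.7 for the former and 61.9 for the latter.

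**Figure D2:**
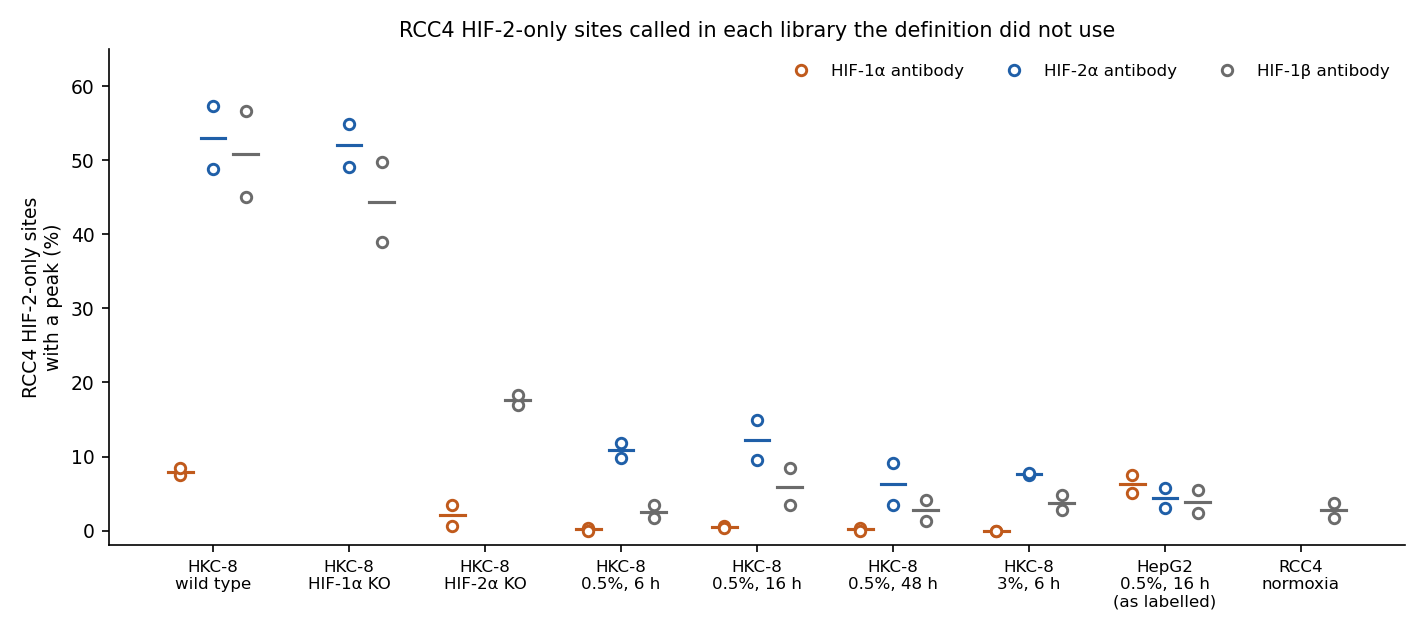
Share of the 295 RCC4 HIF-2-only sites (%) with a peak in each library not used by the definition, as open circles, with the mean of the 2 libraries as a line, by antibody and condition. HIF-2α circles lie above HIF-1α circles in the 5 HKC-8 conditions with both antibodies, for example at means of 7.63% against 0% in 3% oxygen and 53.1% against 7.97% in wild-type cells of the knockout experiment.

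Across the 5 HKC-8 conditions with both antibodies (20 libraries), HIF-2α libraries called on average 16.2 percentage points more of the RCC4 HIF-2-only sites than HIF-1α libraries, 18% against 1.76% (two-sided exact permutation test with antibody labels permuted within condition, p = 2.57e-04, which 7776 arrangements cannot go below, Benjamini-Hochberg adjusted p = 0.00141 over 11 tests). The difference was 10.7 points at 6 h, 11.7 at 16 h, 6.10 at 48 h, 7.63 in 3% oxygen and 45.1 in the wild-type cells of the knockout experiment. Without that last condition, left out after seeing the data, it was 9.03 points. With lists of equal length it was 4.98 points, 5.08% against 0.102%, with the same exact p and adjusted p. With the definition resting on a single RCC4 HIF-2α library it was 3.15 points (without replicate 1) or 5.15 points (without replicate 2). To allow for lists of unequal length, the sites were also taken as a share of all isoform-restricted RCC4 sites called, that is of HIF-1-only plus HIF-2-only sites. That share was 92.1% in HIF-2α libraries and 4.84% in HIF-1α libraries, a difference of 87.2 points with the same exact p and adjusted p, and of 56.5 points without RCC4 HIF-1α replicate 2 in the definition. It was 85.2% and 86.7% for wild-type HIF-2α against 17.3% and 22.5% for HIF-1α, and between 80% and 100% against 0 to 2.86% in the severity and duration libraries. The study calls the duplicates independent experiments and does not say whether they came from separate cultures, so p-values measure the spread between these libraries.

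**Figure D3:**
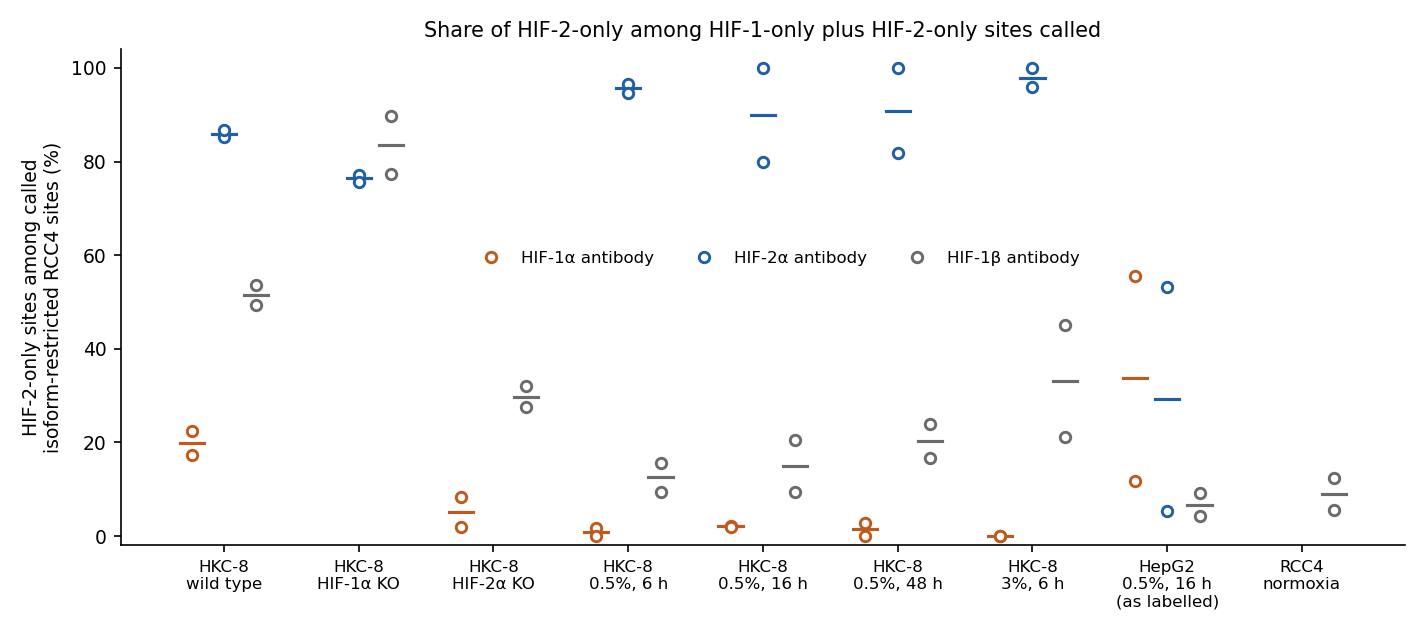
HIF-2-only sites as a share (%) of the RCC4 HIF-1-only plus HIF-2-only sites that each library called, by antibody and condition, with circles for libraries and lines for means. HIF-2α libraries of HKC-8 cells lie at 75.7% or higher, HIF-1α libraries at 22.5% or lower, and the HepG2 libraries of each HIF-α label are split.

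In the clone without HIF-1α, HIF-2α was called at 145 and 162 sites (49.2% and 54.9%), within the range of the wild-type libraries (48.8% and 57.3%), a mean difference of −1.02 points (two-sided exact permutation test, p = 1). With 2 libraries against 2 the smallest p is 0.333, so none of the tests between knockout and wild-type lists can pass a threshold of 0.05. Both libraries held 134 sites (45.4%, background 15.9%) and at least 1 held 173 (58.6%, background 21.7%). Of the 135 sites with HIF-2α in both wild-type libraries 110 (81.5%, 73.9 to 87.6%) had it in both libraries of the clone. In the clone without HIF-2α, HIF-1α was called at 10 and 2 of the sites (3.39% and 0.678%), both below the wild-type values of 7.46% and 8.47% (−5.93 points, exact p = 0.333, adjusted p = 0.538). This difference was −2.20 points with lists of equal length, −1.18 and −1.73 without RCC4 HIF-2α replicate 1 or 2 in the definition, and −13.7 without RCC4 HIF-1α replicate 1. The HIF-1α lists held 1913 and 1535 peaks in wild-type cells and 1271 and 915 in this clone. The study reports slightly lower HIF-1α protein and binding in the clone, and names clonal variation as a possible reason for the protein level. At least 1 HIF-1α library of this clone held 11 sites (3.73%, background 9.51%), and both held 1 (0.339%, background 4.9%), the FHAD1 site. HIF-1α was called in the HIF-2α-deficient clone at 11 of the 135 sites that had HIF-2α in both wild-type libraries, as against 238 of 302 such sites of both isoforms.

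HIF-1β was called at more of the sites in the clone without HIF-1α than in the clone without HIF-2α. In the absence of HIF-1α it was called at 115 and 147 sites (39.0% and 49.8%), and in the absence of HIF-2α at 50 and 54 (16.9% and 18.3%), with 133 and 167 in wild-type cells. The loss of HIF-2α went with a difference of −33.2 points from wild type (exact p = 0.333, adjusted p = 0.538), with no overlap between libraries, and the loss of HIF-1α with −6.44 points (exact p = 0.667, adjusted p = 0.733), with overlapping libraries. The first difference was −8.98 points with lists of equal length, −7.88 without RCC4 HIF-2α replicate 1 in the definition, −14.4 without RCC4 HIF-2α replicate 2 and −10.7 at the 14 sites with RCC4 HIF-1β. The second was 3.22 points with lists of equal length, −1.73 without RCC4 HIF-2α replicate 1 and −3.51 without RCC4 HIF-2α replicate 2. By replicate number it was −6.10 points between the replicate 1 libraries and −6.78 between the replicate 2 libraries. Both libraries held 109 sites (36.9%, background 11.6%) without HIF-1α and 36 (12.2%, background 9.05%) without HIF-2α. At least 1 library held 153 (51.9%, background 18.8%) without HIF-1α and 68 (23.1%, background 15.3%) without HIF-2α. Peak numbers differed as well, being 3387 and 5786 without HIF-1α, 2550 and 2085 without HIF-2α and 6199 and 8279 in wild-type cells. As a share of the isoform-restricted sites called, HIF-2-only sites made up 89.8% and 77.4% without HIF-1α, 49.3% and 53.7% in wild-type cells and 27.6% and 32.0% without HIF-2α. The difference between the clones was 53.8 points (exact p = 0.333, adjusted p = 0.538), or 32.2 without RCC4 HIF-1α replicate 1 in the definition and 27.5 without RCC4 HIF-1α replicate 2. With the HIF-2-only sites cut to the 14 with RCC4 HIF-1β and all 256 HIF-1-only sites kept, it was 20.4 points. Only 1 of the 2 classes was cut there, so that value is not on the scale of the 53.8 points.

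Of the 129 sites with HIF-1β in both wild-type libraries, 93 (72.1%, 63.5 to 79.6%) had it in both libraries of the HIF-1α-deficient clone and 33 (25.6%, 18.3 to 34.0%) in both of the HIF-2α-deficient clone. In the HIF-2α-deficient clone 67 of the 129 (51.9%, 43.0 to 60.8%) were in neither library. HIF-1-only sites showed the opposite order, with 11 (8.94%) and 97 (78.9%) of 123, and sites of both isoforms had 263 (78.3%) and 248 (73.8%) of 336.

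**Figure D4:**
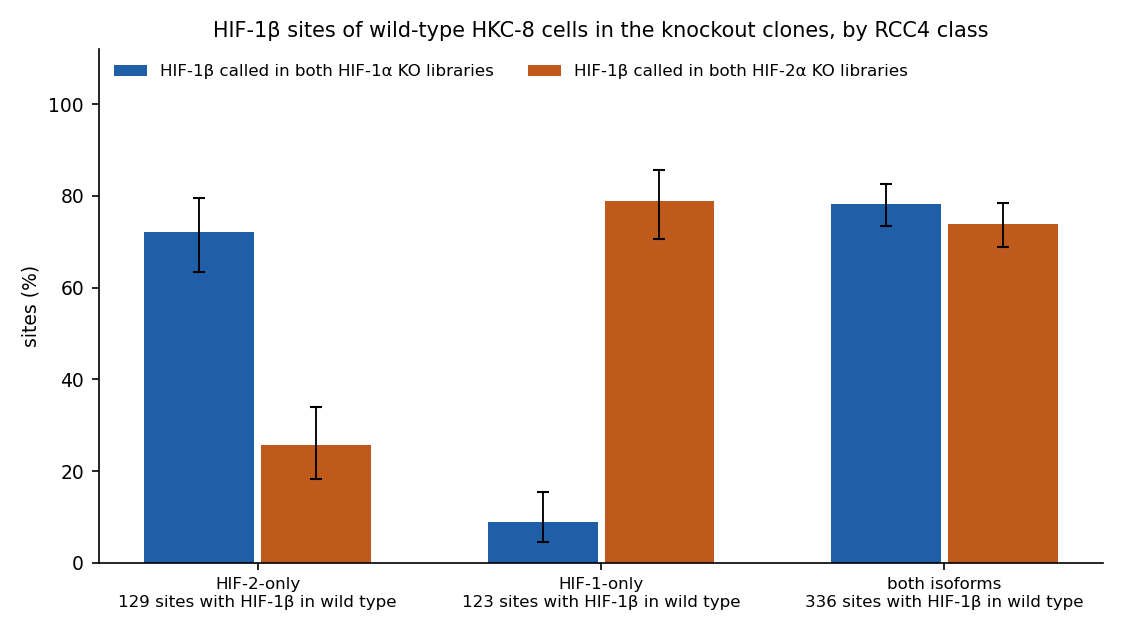
Sites with HIF-1β in both wild-type HKC-8 libraries that kept HIF-1β calls in both libraries of each knockout clone (%), for the 3 RCC4 classes, with exact 95% binomial intervals as lines. HIF-2-only sites stand at 72.1% without HIF-1α and 25.6% without HIF-2α, and HIF-1-only sites at 8.94% and 78.9%.

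In the severity and duration experiment fewer of the sites were called, and HIF-2α still held the most. After 6 h in 0.5% oxygen HIF-2α was at 29 and 35 sites (9.83% and 11.9%, mean 10.8% ± 1.44), HIF-1α at 1 and 0, and HIF-1β at 5 and 10. At 16 h HIF-2α was at 28 and 44 sites, HIF-1α at 2 and 1 and HIF-1β at 10 and 25. The 48 h libraries had HIF-2α at 27 and 10 sites, HIF-1α at 1 and 0 and HIF-1β at 12 and 4. In 3% oxygen for 6 h HIF-2α was at 22 and 23 sites and HIF-1β at 8 and 14. HIF-1α was at none in either library, which allows up to 1.02%, again taken as 3 counts of 295. The sites in both HIF-2α libraries numbered 21 at 6 h (7.12%, background 1.77%), 19 at 16 h (6.44%, background 2.44%), 5 at 48 h (1.69%, background 0.279%) and 17 in 3% oxygen (5.76%, background 0.73%). For HIF-1β they numbered 2 (0.678%, background 2.88%), 9 (3.05%, background 5.87%), 3 (1.02%, background 1.76%) and 6 (2.03%, background 2.18%). HIF-1α was in both libraries only at 16 h, at 1 site (0.339%, background 2.16%), the backgrounds at 6 h, 48 h and in 3% oxygen being 1.34%, 0.541% and 0.351%. At least 1 HIF-2α library held 43 sites at 6 h (14.6%, background 4.44%), 53 at 16 h (17.97%, background 5.88%), 32 at 48 h (10.8%, background 4.05%) and 28 in 3% oxygen (9.49%, background 2.47%). At least 1 HIF-1β library held 13 (4.41%, background 5.69%), 26 (8.81%, background 10.6%), 13 (4.41%, background 5.19%) and 16 (5.42%, background 4.51%). At least 1 HIF-1α library held 1 (0.339%, background 3.41%), 2 (0.678%, background 5.35%), 1 (0.339%, background 2.13%) and 0 (background 1.19%). The HIF-2α shares stood above the background in every condition, and the HIF-1α shares below it. The background takes in sites called in a single RCC4 library, whereas these sites had to be called in 2. It also takes in sites with an RCC4 HIF-1α peak (62% in either list), which the rule removed from these. Both gaps thus go in the direction of the rule, and its part in them was not tested. Sites of both isoforms were in both HIF-2α libraries more often than these sites in every condition. Their shares were 20.1% at 6 h, 27.5% at 16 h, 4.11% at 48 h and 8.44% in 3% oxygen. No difference between conditions passed in tests that averaged the 3 antibodies. Over the 3 antibodies, 3% oxygen differed from 0.5% by −0.73 points (exact permutation test within antibody, p = 0.444, adjusted p = 0.611), 16 h from 6 h by 1.69 points (p = 0.278, adjusted p = 0.538) and 48 h from 6 h by −1.47 points (p = 0.343, adjusted p = 0.538). The smallest p these tests allow is 0.00926. In the same order the differences were −3.22, 1.36 and −4.58 points for HIF-2α and 1.19, 3.39 and 0.169 for HIF-1β. For HIF-1α they were −0.169, 0.339 and 0, and no antibody was tested alone. The HIF-2α lists held 1417 and 1493 peaks after 6 h in 0.5% oxygen, 558 and 977 in 3% oxygen and 1383 and 237 at 48 h.

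The 16 h libraries of this experiment and the wild-type libraries of the knockout experiment had the same line, oxygen level and time, yet HIF-2α was called at 9.49% and 14.9% of the sites in the former and at 48.8% and 57.3% in the latter. The HIF-2α lists held 1198 and 1051 peaks in the former and 4537 and 6749 in the latter. The experiment and the list length cannot be told apart here, and levels are compared only within an experiment. The second HIF-2α library at 48 h had 237 peaks, the fewest of any list.

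HIF-2α of the severity and duration experiment was at 74 of the 295 sites (25.1%) in at least 1 of 8 lists, and 66 of these were also in a wild-type HIF-2α list. HIF-1α was at 2 sites and HIF-1β at 43. The background was taken per condition only, so these pooled counts have none to stand beside. A set of 14 sites had HIF-2α in all 4 conditions, near FHAD1, LPIN1, ROBO2, SERTAD4, SNAPC1, CBX7, CES3, RND3, SMYD3, IGFBP3, EPS15, FAM107A, NBPF6 and FAM24B. The set was chosen after its values were seen, so its properties are given with no test. An HRE core lay at 2 of the 14, FHAD1 among them, and at 114 of the 221 sites (51.6%) without HIF-2α in any of these conditions. The TEAD core was at 8 of 14 and at 51 of 221 (23.1%). At ROBO2 the 5 TEAD matches, CATTCC on the printed strand, lay within the repeated stretch of its window. HIF-1β of the same experiment was at 3 of the 14, FHAD1 in 8 of 8 lists, FAM107A in 4 and CBX7 in 1. In the wild-type lists of the knockout experiment, where HIF-2α was at 12 of the 14 in both libraries, HIF-1β was called at 10 in at least 1 library. HIF-2α was in both libraries of the HIF-1α-deficient clone at 13.

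Among the 295 sites, the highest RCC4 HIF-2α scores belonged to the intron site of SMYD3, which encodes a lysine methyltransferase (chr1:246598428-246599517). Its scores were 1733 and 1759, a mean percentile of 99.6. HIF-2α was called there in 11 of the 14 other HIF-2α lists, and HIF-1β in none of 18 and HIF-1α in none of 14. The SNAPC1 site (chr14:62221536-62222704), with scores of 1017 and 1284, lay close to the start of SNAPC1, a subunit of the small nuclear RNA activating complex, and 6.56 kb beyond the end of HIF1A, the gene of HIF-1α itself. It was in 12 HIF-2α, 4 HIF-1α and 4 HIF-1β lists. The site in an intron of ROBO2, a receptor for SLIT guidance cues (chr3:76546490-76547565), scored 577 and 527 and was in 12 HIF-2α lists and 1 HIF-1β list. These are the windows with repeated words printed above. The 3 sites of highest mean score percentile had HIF-2α in 11 or 12 of 14 lists, but HIF-1β in 0 to 4 of 18. In all, 201 sites were called by HIF-2α in at least 1 list outside RCC4 cells, and 25 of them by HIF-1β in no list. Of those 25, 6 were in at least 5 HIF-2α lists, near SMYD3, EPS15, MARCHF1, FAM24B, ERCC2 and NFKBIZ, none with an HRE core.

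The rest of the 10 sites with the highest mean percentile of RCC4 HIF-2α score were near ADTRP, KRBOX4, GADD45B, AP1S3, PDGFC, RGS20 and IGFBP3. All 10 had HIF-2α in both wild-type HKC-8 libraries. GADD45B encodes a stress-response protein, and its site lay 64.5 kb away in an intron of GNG7 with 14 calls, 10 of them HIF-2α and 4 HIF-1β. IGFBP3 encodes a carrier of insulin-like growth factors, and its site (chr7:46184611-46185762) was 224 kb away, also with 10 HIF-2α and 4 HIF-1β calls, 1 of the latter in RCC4 cells. PDGFC encodes a platelet-derived growth factor, and its intronic site, with scores of 348 and 344, was in 3 lists. It had HIF-2α in both wild-type libraries but in neither library of the HIF-1α-deficient clone. The AP1S3 site, in an intron of this clathrin adaptor subunit gene, was in 5 lists. Of the 7, ADTRP and AP1S3 had an HRE core.

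The sites that recurred most were called by all 3 antibodies outside RCC4 cells. The FHAD1 site (chr1:15682498-15683369), in an intron, was in 38 of 46 lists, made up of 13 of 14 HIF-2α, 9 of 14 HIF-1α and 16 of 18 HIF-1β lists, although its RCC4 HIF-2α scores were 61.4 and 60.2. It was in neither RCC4 HIF-1β list. FGGY, a carbohydrate kinase gene, was 253 kb from a site in 26 lists with 1 HRE core. The site near ETS2, an ETS-family transcription factor gene, was in 25 lists and the CRISPLD2 site in 24. Further sites of the first 10 were near RGS20, a regulator of G-protein signalling (22 lists), FAM107A, an actin-associated protein (21), EEF1A1, a translation elongation factor (21), SNAPC1 (20), RUNX2 (18) and GNA14, a G-protein α subunit (18). At 18 lists 4 sites were tied, and the mean score percentile decided which of them were named. Of these 10, 9 had HIF-1β in both wild-type libraries and in both libraries of each knockout clone, the exception being SNAPC1, which had none without HIF-2α. These HIF-1β lists were among the 46 by which the 10 were chosen, so such calls come with the choice. Over all 295 sites, both HIF-1β libraries held 109 (36.9%) without HIF-1α and 36 (12.2%) without HIF-2α. The sites with the most HIF-1α lists outside RCC4 cells were FHAD1 (9), FGGY and EEF1A1 (5 each) and RGS20 and SNAPC1 (4 each). The HepG2 lists labelled HIF-1α, whose replicates did not resemble each other, count here, and in the 12 HKC-8 lists FHAD1 had 7, RGS20 had 2, and FGGY, EEF1A1, SNAPC1, ETS2, GNA14, ENO1, ASB5 and ZNF326 had 3 each. Over all 295 sites, 52 (17.6%, 13.5 to 22.5%) had HIF-1α in at least 1 of 14 lists, 201 (68.1%) had HIF-2α in at least 1 of 14 and 188 (63.7%) had HIF-1β in at least 1 of 18. Without the HepG2 lists these numbered 34 (11.5%, 8.12 to 15.7%), 200 (67.8%) and 187 (63.4%). Shares of all RCC4 HIF-α sites were not taken over pooled lists, so these counts are not set against a background.

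**Figure D5:**
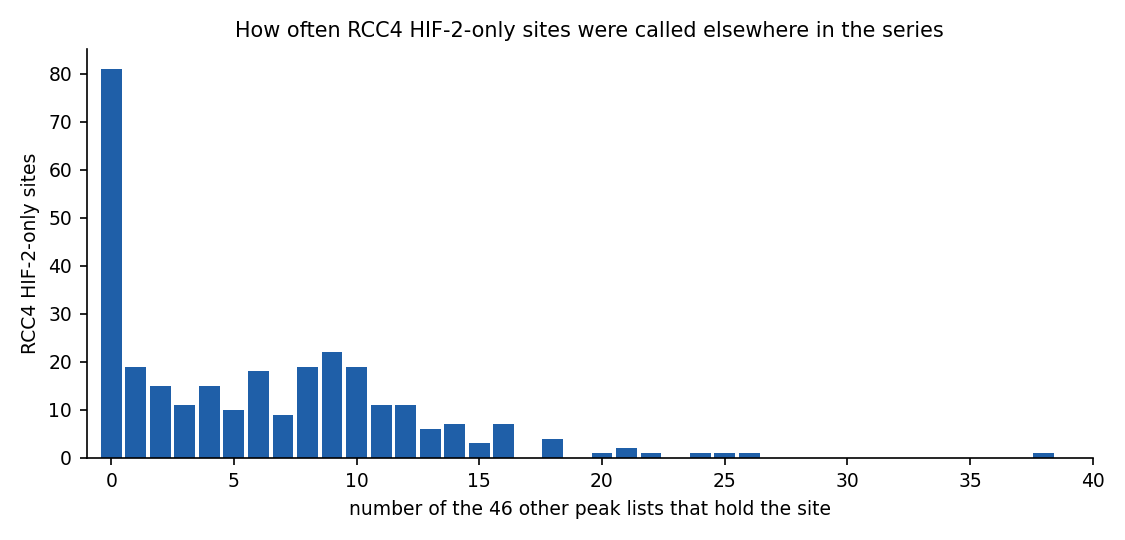
Number of RCC4 HIF-2-only sites (y axis) by how many of the 46 other peak lists held them (x axis). The 81 sites in no other list form the tallest bar, the median site was in 5 lists, and the FHAD1 site stands alone at 38.

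A total of 81 sites (27.5%, 22.4 to 32.9%) were in no other list, a share that was not taken over all RCC4 HIF-α sites. Their HRE share was 39 of 81 (48.1%), their AP-1 share 12 of 81 (14.8%) and their RUNX share 15 of 81 (18.5%), and their lower HIF-2α score had a median of 66.3, as against 72.4 for all 295. By score percentile, 21 of the 98 highest, 27 of the middle 98 and 33 of the 99 lowest sites were in no other list.

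Before the HepG2 values it has to be said that the 2 libraries of each HIF-α label did not resemble each other. HIF-2-only sites made up 55.6% of the isoform-restricted sites called in the library labelled HIF-1α replicate 1 and 53.1% in that labelled HIF-2α replicate 2, but 11.8% in HIF-1α replicate 2 and 5.33% in HIF-2α replicate 1. HIF-1-only sites were at 12 and 15 in the first pair and at 164 and 160 in the second. The labels were used as given, and no direction between isoforms is drawn from them (difference −4.47 points, exact permutation test, p = 0.667). The difference was −50.2 points between the replicate 1 libraries and 41.3 points between the replicate 2 libraries. Few RCC4 HIF-2-only sites were called in HepG2 cells whatever the label. The libraries labelled HIF-1α held 15 and 22, those labelled HIF-2α 9 and 17 and those of HIF-1β 16 and 7 (2.37 to 7.46%). Both HIF-2α-labelled libraries held 8 (2.71%, background 3.96%), both HIF-1α-labelled libraries 10 (3.39%, background 3.44%) and both HIF-1β libraries 4 (1.36%, background 10.7%). At least 1 library held 18 for the HIF-2α label (6.10%, background 15.1%), 27 for the HIF-1α label (9.15%, background 17.2%) and 19 for HIF-1β (6.44%, background 18%). In all, 33 of 295 sites (11.2%, 7.83 to 15.4%) were in at least 1 of the 6 lists, and 30 of these had HIF-2α in a wild-type HKC-8 library. No background was taken over the 6 lists pooled.

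The 4 sites in all 6 HepG2 lists were near FHAD1, RGS20, EEF1A1 and SMIM3. SMIM3, a small membrane protein gene, was called in no HKC-8 list, whereas the other 3 had HIF-2α in both wild-type HKC-8 libraries. Sites near VMP1, an autophagy gene, and PHLDA1, a pleckstrin-homology protein gene, were in 5 of the 6, and a site 4.39 kb from a start site of FTH1, the ferritin heavy chain, was in 4. The site 9.11 kb from CDKN1A, which encodes the cell-cycle inhibitor p21, was in 3. An HRE core was at 19 of the 33 (57.6%) and AP-1 at 8 (24.2%).

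By nearest protein-coding start site the 295 sites belonged to 268 genes, 23 of which had more than 1 site. Nearness does not establish that a gene is a target. CITED2, whose product restrains HIF by competing for its coactivator, had 3 sites at 213, 479 and 677 kb, with 4, 0 and 11 calls. CRISPLD2 also had 3, within 84865435 and 84885700 of chromosome 16, all of them in 13 to 24 lists. Of 21 genes on a list linked to HIF-2 in the literature, 4 were nearest to 6 RCC4 HIF-2-only sites, namely CITED2, IGFBP3, LOXL2 and TGFA, when 6 were nearest to both-isoform sites and 0 to HIF-1-only sites. The 6 sites, 3 of them those of CITED2, were 2.03% (0.750 to 4.37%) of the 295. Among sites of both isoforms 7 of 462 were nearest to a gene of that list, and 0.506% of the 11066 RCC4 HIF-α sites. LOXL2, which cross-links collagen, had an intronic site with 5 HIF-2α and 6 HIF-1β calls and none of HIF-1α, and TGFA, a ligand of the EGF receptor, had a site in an intron in 7 lists. Among 33 growth factors and receptors, 4 were nearest to 5 sites: PDGFC, TGFA, TGFB2 with 2 sites, and TGFBR2. That was 1.69% (0.553 to 3.91%) of the 295, beside 5 of 462 sites of both isoforms and 0.578% of all RCC4 HIF-α sites. The TGFBR2 site, in an intron of the type II receptor of TGF-β, held an HRE core and an AP-1 motif and was in 9 lists.

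Of 21 glycolysis genes 1, ENO1, was nearest to an RCC4 HIF-2-only site, as against 12 for both-isoform and 3 for HIF-1-only sites. Sites nearest to these genes were 0.339% (0.00858 to 1.87%) of the 295 and 0.407% of all RCC4 HIF-α sites. That ENO1 site (chr1:8963711-8964385), 24.8 kb from a start site of this enolase gene, had no HRE core in its window and was in 18 lists, with HIF-1α in both wild-type libraries. Of 32 hypoxia-response genes 1, ARRDC3, was nearest to a HIF-2-only site (0.339% of the 295, and 0.660% of all RCC4 HIF-α sites), and 22 to both-isoform sites. JUN, of 13 AP-1 family genes, had a site 99.5 kb away with 2 HRE cores and 10 calls, 1 of them HIF-1β in RCC4 cells, and another in no other list. Of 13 genes at renal cancer susceptibility loci, MYEOV had an intronic site with HIF-2α in both wild-type libraries and HIF-1α in none, and MYC had a site in no other list. The AP-1 family and the renal cancer list each had 2 sites (0.678%, 0.0822 to 2.43%), where all RCC4 HIF-α sites had 0.181% and 0.316%. COL4A1 was the 1 of 27 matrix and adhesion genes (0.339%, and 0.461% of all RCC4 HIF-α sites), and 0 of 14 kidney lineage factors had a site (0.226% of all RCC4 HIF-α sites). The classes differ in size, so these counts describe the groups and carry no test.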

How the data were processed

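Deposited peak lists of ChIP-seq libraries in HKC-8, RCC4 and HepG2 cells were analysed. Per the labels and the study's methods, the authors trimmed reads with Trim Galore 0.3.3, aligned them to GRCh37 (hg19) with BWA 0.7.5a-r405, removed low mapping quality (under 15) with SAMtools 0.1.19 and blacklisted regions with bedtools 2.17.0, marked duplicates with Picard 1.106 and called peaks with MACS against input, per library. The deposited score of each peak was read as the negative log10 of the MACS p-value times 10, as that program writes it. The methods also describe a second caller and a filter on read density, and whether the deposited lists passed these is not given in the sources used here. The lists give no read counts, so sequencing depth behind a call is unknown. List length stands beside some of the results that it can touch.

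The 295 members and all gene lists were chosen with earlier results of these data known. Overlap meant at least 1 shared base. Merged intervals were annotated with GENCODE 44 lifted to GRCh37, and motifs were searched within 100 bases of the middle. Named sites were the 10 in most of the 46 other lists, the 10 with the highest mean percentile of RCC4 HIF-2α score, those with HIF-1β in both RCC4 lists at a listed gene (none qualified), the 5 in most HIF-1α lists, and those of listed genes; other named sites were chosen after their values were seen. Background percentages are over the 11099 merged RCC4 HIF-α sites. Libraries were the unit of the exact permutation tests (two-sided, Benjamini-Hochberg over 11), which were tested on simulated lists. Alternatives covered overlap, score, window, list length and replicates. Python 3.11.15, numpy 2.4.6, scipy 1.17.1 and pysam 0.24.0 were used. Of 66 samples, the 16 inputs were not analysed here.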

Additional observations from a re-analysis of the deposited data

How the results depend on the processing

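Across 190 recalculations, 149 kept the direction and the side of the threshold, or moved by less than the counting interval, and 3 gave a difference of 0. The tests between knockout and wild-type lists, between the clones and in HepG2 cannot give a p below 0.333. Their side of the threshold could not change, so for them the count tells of direction only. The HKC-8 differences between isoforms lost the threshold only where fewer libraries were left: without 1 replicate number the differences were 15.2 and 17.3 points for sites called and 83.9 and 90.5 for the HIF-2-only share (exact permutation p = 0.0625 and adjusted p = 0.344, the lowest that this many libraries allow), and in the knockout experiment alone 45.1 and 66.0 points (exact permutation p = 0.333). With 1 library, replicate or condition left out they ran from 3.15 to 18.8 and from 56.5 to 92.5 points, leaving out a condition being an alternative chosen after seeing the data. The difference in HIF-2α calls between the HIF-1α-deficient clone and wild type, −1.02 points, reversed to 1.75 with scores of at least 100, 1.99 with windows of 200 bases, and lay between −2.37 and 3.26 when 1 library or replicate was left out, being positive without replicate 2 (0.339) and without RCC4 HIF-2α replicate 2 (1.03) or HIF-1α replicate 1 (3.26). The HIF-1β difference for the same clone reversed to 3.22 with lists of equal length. The 48 h difference ran from −3.50 without replicate 1 to 0.565 without replicate 2, where it reversed, and the HepG2 difference of −4.47 points reversed to 1.91 with scores of at least 100 and 41.3 without replicate 1, against −50.2 without replicate 2. The causes were not tested.

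The number of sites was 171 with scores of at least 100, and 309 to 2577 when 1 RCC4 HIF-α library was left out, which by construction admits more sites. The promoter share was 10.2% within 5 kb, 8.81% with all transcripts, 0% at sites with RCC4 HIF-1β, and 1.39 to 6.11% when 1 RCC4 library was left out. The HRE share was 82.7% over whole sites, 53.8% with scores of at least 100, and 21.1 to 56.8% with 1 RCC4 library left out. For AP-1 the share was 49.5% over whole sites and 9.99 to 22.8% with 1 RCC4 library left out. It was 7.14% at sites with RCC4 HIF-1β, which is 1 of 14 (0.181 to 33.9%). The RCC4 HIF-1β share was 0.678% for both libraries, 9.20% with windows of 200 bases, and 1.03 to 17.8% with 1 RCC4 library left out, the highest without HIF-1α replicate 1.

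In the pairs of groups that were checked, equal replicate numbers did not pair the samples. Wild type was not checked against the clones in this way. The correlation of replicate differences between groups ran from −0.540 in HepG2 to 0.188. With the replicate block the HKC-8 differences of 16.2 and 87.2 points had an exact p of 0.00195 (adjusted 0.0107), and the block changed no call. Peak lists bound what can be said: a site missing from a short list may be bound below the caller's threshold.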
